A study of Mus musculus with 12 samples.

Results

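The E proteins, the ID proteins that block them and the zinc-finger factor GATA3 were examined in cultured mouse hematopoietic stem cells (HSCs). The 7 genes are Tcf3, Tcf4 and Tcf12 for the E proteins, Id1, Id2 and Id3 for the ID proteins, and Gata3. They were chosen by name, with earlier results of these data known, and each matched a single gene of the 40481 in the deposited table. Levels are given in CPM, the usual count scaled to a fixed library total.

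RNA was sequenced in 12 libraries, 3 in each of 4 groups. The HSCs were WT (wild type) or iE/R, the label for an inducible ETV6-RUNX1 allele. They were sorted from E14.5 fetal liver or from the bone marrow of mice aged 8 weeks. All 4 groups, WT included, were then kept for 3 days under HSC expansion conditions in the presence of 1 µg/mL doxycycline. ETV6-RUNX1 joins a pair of transcription factors and is found in B-cell leukemia of children, and the series title asks how developmental age shapes its effect on HSCs. Which locus and promoter drive the inducible allele, how many animals went into a library and their sex are not given in the sources used here. Nothing states that the libraries of a group came from separate animals, so the p-values measure only the spread between these samples.

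E proteins are basic helix-loop-helix transcription factors that bind E-box sequences as pairs with themselves or with tissue-restricted partners, and they are needed for the start of B and T lymphocyte development. ID proteins carry the helix-loop-helix part without the basic part, so they pair with E proteins and keep them off DNA. GATA3 is required for early T cells and some innate lymphoid cells, and it is also expressed in HSCs.

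Libraries held 32.3 to 64.5 M reads. A count of 3 reads, the floor used here, equals 0.0465 CPM in the deepest and 0.0928 CPM in the shallowest library and covers counting error only. Pearson correlations between libraries of a group ranged from 0.974 to 0.991. Ribosomal protein genes held 6.32% to 13.6% of reads. All 13 HSC markers examined, such as Kit, Procr and Hlf, had a mean of at least 1 CPM in every group. Xist lay between 0.175 and 1.27 CPM in bone marrow and between 51.7 and 89.3 CPM in fetal liver, and the Y-linked gene Ddx3y lay between 23.5 and 41.5 CPM in WT and between 69.1 and 75.2 CPM in ETV6-RUNX1 fetal liver. The part of the sex of the animals in the comparisons between sources and within fetal liver was not tested. The 8 neutrophil markers summed to 2.82 to 114 CPM in WT bone marrow and to at most 20.1 CPM elsewhere, and their part in the bone marrow results was not tested either.

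The promoters of Gata3 and Tcf3 are shown because Gata3 had the largest genotype effects among the 7 genes and Tcf3 was called in bone marrow and not in fetal liver. Each line gives the 250 bases before the RefSeq start site and the first bases of the transcript, from RefSeq on GRCm38.p6, read 5′ to 3′ on the gene's strand, with E-box letters (CANNTG, searched on both strands) in capitals. The first is chr2:9878596-9878850 on the minus strand, which lies inside the longer gene that GENCODE annotates, and the second is chr10:80433631-80433885 on the minus strand.
Gata3: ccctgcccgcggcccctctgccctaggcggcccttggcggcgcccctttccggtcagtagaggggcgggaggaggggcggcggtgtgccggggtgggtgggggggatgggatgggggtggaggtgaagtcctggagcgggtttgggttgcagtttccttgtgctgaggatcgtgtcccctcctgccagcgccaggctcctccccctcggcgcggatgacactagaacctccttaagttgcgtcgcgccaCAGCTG
Tcf3: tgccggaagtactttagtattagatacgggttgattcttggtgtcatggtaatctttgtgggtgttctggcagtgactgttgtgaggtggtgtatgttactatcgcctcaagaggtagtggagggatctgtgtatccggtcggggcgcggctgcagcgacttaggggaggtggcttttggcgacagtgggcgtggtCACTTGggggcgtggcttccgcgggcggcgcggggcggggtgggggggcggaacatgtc

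The Gata3 window of 300 bases holds 1 E-box, of the form CAGCTG, which begins at position -1 from the start site. The Tcf3 window also holds 1, at position -54. Among 32851 promoter windows of that length, 72.3% hold CANNTG and 16.3% hold CAGCTG, so an E-box in such a window is common. The letter search covered 7 windows, for Gata3, Tcf3, Tcf12, Id2 and Id3. No window of Tcf4 or Id1 was searched. CAGCTG, which is a form of CANNTG, was found in the windows of Gata3 and Id2 and in the first of 3 for Tcf12. The RUNX letters TGTGGT (in 16.8% of all windows) and TGCGGT (in 6.5%), searched on both strands, were in none of the 7. These matches describe letters in a short window and not sites.

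Gata3 (ENSMUSG00000015619, chr2:9857078-9890034 on GRCm38, minus strand) was the gene of the 7 with the clearest difference between the groups. Its levels were 17.4, 22.2 and 21.5 CPM in WT fetal liver and 49.1, 57.1 and 66.8 CPM in ETV6-RUNX1 fetal liver. In bone marrow they were 33.5, 48.8 and 43.4 CPM in WT and 93.1, 88.3 and 84.8 CPM in ETV6-RUNX1. No pair of groups overlapped, although the lowest ETV6-RUNX1 fetal liver library stood only just above the highest WT bone marrow library. The means were 20.4 ± 2.58 and 57.7 ± 8.88 CPM (SD, n = 3) in WT and ETV6-RUNX1 fetal liver, and 41.9 ± 7.77 and 88.8 ± 4.16 CPM in bone marrow.

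Gata3 rose with the fusion in both sources. On the log2(CPM + 1) scale the rise was 1.45 ± 0.17 (SE) in fetal liver (limma adjusted p 1.2e-05) and 1.08 ± 0.17 in bone marrow (limma adjusted p 0.000927). Both calls, meaning an adjusted p under 0.05, held under all 20 alternative analyses tried. The fetal liver effect exceeded the bone marrow effect by 0.37 ± 0.24, which did not pass (limma adjusted p 0.33). Across sources, Gata3 was lower in fetal liver than in bone marrow in WT cells (-1.0 ± 0.17, limma adjusted p 0.00122) and in ETV6-RUNX1 cells (-0.62 ± 0.17, limma adjusted p 0.0124). The last of these was lost without ETV6-RUNX1 fetal liver replicate 1 (-0.51, limma adjusted p 0.0659). It was -0.45 with median-of-ratios scaling (limma adjusted p 0.048), -0.46 with DESeq2 (adjusted p 0.035) and -0.46 with edgeR (adjusted p 0.0489). Gata3 shares 155 exon bases with the antisense gene Gm13256 and 77 with 9230102O04Rik on its own strand. Those genes reached at most 0.0465 and 0.240 CPM in any library, and whether counting used the strand is not given in the sources used here.

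**Figure D1:**
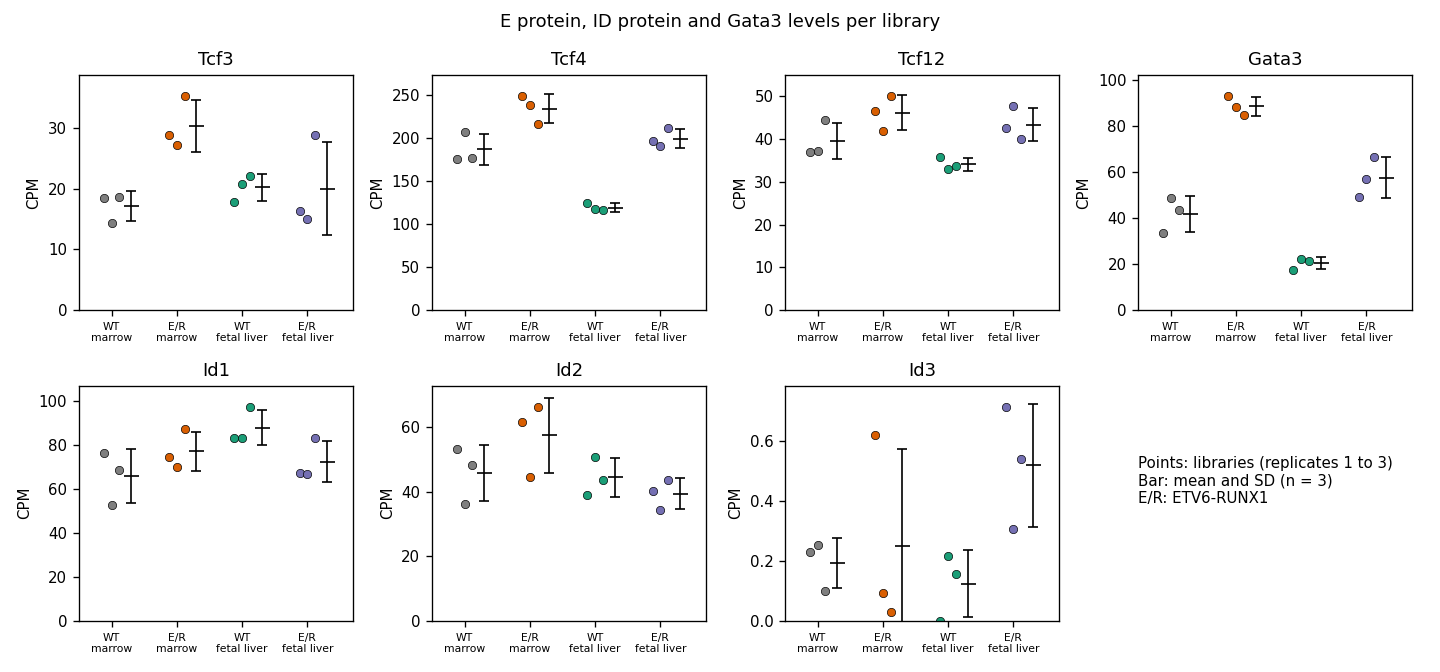
CPM (linear axes from 0, a scale for each panel) of the 7 genes in each library, with the group mean and SD (n = 3) as a bar beside the points. Gata3 and Tcf4 separate ETV6-RUNX1 from WT libraries in both sources. Tcf3 does so in bone marrow, and Tcf12, Id1 (lower in ETV6-RUNX1) and Id3 do so in fetal liver. Of all genes tested, 55.6% do so in fetal liver and 34.5% in bone marrow. Id3 stays below 1 CPM in every library.

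Among the E proteins, Tcf4 had the highest counts. Tcf4 (ENSMUSG00000053477), which is also the factor that specifies plasmacytoid dendritic cells, was at 125, 117 and 116 CPM in WT fetal liver and at 197, 191 and 212 CPM in ETV6-RUNX1 fetal liver. The groups were far apart, at 119 ± 4.73 and 199.7 ± 11.1 CPM (SD, n = 3), and Tcf4 rose by 0.74 ± 0.12 on the log2 scale (limma adjusted p 0.000179), a call held under all 20 alternatives. In bone marrow Tcf4 was at 176, 208 and 178 CPM in WT and at 249, 238 and 217 CPM in ETV6-RUNX1. These groups did not overlap either, but the difference of 0.33 ± 0.12 missed the threshold (limma adjusted p 0.0598, 95% interval 0.08 to 0.57) and passed under 2 of 20 alternatives. It was 0.17 with median-of-ratios scaling and with edgeR and 0.18 with DESeq2 (adjusted p 0.311, 0.318 and 0.276). The fetal liver effect of Tcf4 minus its bone marrow effect was 0.41 ± 0.16 (limma adjusted p 0.129). That difference passed with DESeq2 alone among the alternatives (adjusted p 0.0423).

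Tcf4 followed the same order of group means as Gata3, highest in ETV6-RUNX1 bone marrow, then ETV6-RUNX1 fetal liver, WT bone marrow and WT fetal liver. The middle pair of groups overlapped for Tcf4, with ETV6-RUNX1 fetal liver at 191 to 212 CPM and WT bone marrow at 176 to 208 CPM. In WT cells Tcf4 was lower in fetal liver than in bone marrow by a log2 difference of -0.64 ± 0.12 (limma adjusted p 0.00216, held under 20 of 20 alternatives). In ETV6-RUNX1 cells the corresponding difference was -0.23 ± 0.12 (limma adjusted p 0.15), with no overlap between groups. It was -0.054 with median-of-ratios scaling, -0.066 with DESeq2 and -0.071 with edgeR.

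Tcf3 (ENSMUSG00000020167, chr10:80409514-80433647, minus strand), which encodes the E protein needed for B-cell commitment, differed between genotypes in bone marrow. There it was at 18.5, 14.3 and 18.6 CPM in WT and at 28.8, 27.1 and 35.2 CPM in ETV6-RUNX1, with no overlap. The rise of 0.79 ± 0.22 on the log2 scale passed (limma adjusted p 0.0234) and held under 13 of 20 alternatives. It was lost with edgeR (0.67, adjusted p 0.0645), with median-of-ratios scaling (0.64, limma adjusted p 0.057), with quantile normalization (0.56, limma adjusted p 0.122) and with all genes tested (limma adjusted p 0.0627). It was also lost without ETV6-RUNX1 bone marrow replicate 1 (limma adjusted p 0.0505) or 3 (0.0652), or without WT bone marrow replicate 2 (0.082).

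In fetal liver Tcf3 was at 17.8, 20.8 and 22.1 CPM in WT and at 16.3, 15.0 and 28.8 CPM in ETV6-RUNX1. Replicate 3 of the ETV6-RUNX1 group lay above all 3 WT libraries and its other libraries lay below them. The difference was -0.07 ± 0.22 (limma adjusted p 0.833, 95% interval -0.54 to 0.41). The effect in fetal liver minus that in bone marrow was -0.86 ± 0.31 and did not pass (limma adjusted p 0.0992). It passed when ETV6-RUNX1 fetal liver replicate 3 was left out (-1.14, limma adjusted p 0.0158). Among ETV6-RUNX1 cells Tcf3 was lower in fetal liver than in bone marrow (-0.63 ± 0.22, limma adjusted p 0.0467), a call that held under 6 of 20 alternatives.

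Tcf12 (ENSMUSG00000032228, chr9:71842688-72111871, minus strand) encodes the third E protein of the family and is important for early T-cell development. It was at 35.8, 33.0 and 33.6 CPM in WT fetal liver and at 42.6, 47.7 and 39.9 CPM in ETV6-RUNX1 fetal liver. The groups did not overlap, and the log2 difference of 0.33 ± 0.14 missed the threshold (limma adjusted p 0.0621), as it did under all 20 alternatives. In bone marrow Tcf12 was at 37.0, 37.2 and 44.5 CPM in WT and at 46.6, 42.0 and 50.04 CPM in ETV6-RUNX1, which overlapped (0.22 ± 0.14, limma adjusted p 0.272). An intron of Tcf12 holds the ribosomal pseudogene Rpl15-ps2 on the opposite strand, which shares 0 exon bases with it.

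None of the ID genes was called in either genotype comparison. Id1 (ENSMUSG00000042745, chr2:152736251-152737410, plus strand), a target of bone morphogenetic protein (BMP) signals, was at 83.2, 83.3 and 97.2 CPM in WT fetal liver and at 67.2, 66.9 and 83.02 CPM in ETV6-RUNX1 fetal liver. The highest ETV6-RUNX1 library lay just below the lowest WT library. The log2 difference was -0.28 ± 0.16 (limma adjusted p 0.17, 95% interval -0.62 to 0.06). In bone marrow Id1 was at 76.2, 52.5 and 68.8 CPM in WT and at 74.3, 69.8 and 87.1 CPM in ETV6-RUNX1, with overlap (0.23 ± 0.16, limma adjusted p 0.316). WT fetal liver libraries all stood above WT bone marrow libraries for Id1. That difference of 0.42 ± 0.16 missed the threshold (limma adjusted p 0.106) and passed without WT bone marrow replicate 1 (0.54, limma adjusted p 0.0336).

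Id2 (ENSMUSG00000020644, chr12:25093799-25097140, minus strand), which natural killer and innate lymphoid cells require, was at 38.8, 50.7 and 43.7 CPM in WT and at 40.3, 34.2 and 43.5 CPM in ETV6-RUNX1 fetal liver. In bone marrow it was at 53.1, 36.2 and 48.2 CPM in WT and at 61.7, 44.4 and 66.2 CPM in ETV6-RUNX1. The genotypes overlapped in both sources, with log2 differences of -0.17 ± 0.19 (limma adjusted p 0.493) and 0.32 ± 0.19 (limma adjusted p 0.249). Between ETV6-RUNX1 groups Id2 did not overlap, and the fetal liver minus bone marrow difference of -0.52 ± 0.19 lay at the threshold (limma adjusted p 0.0503, passed under 3 of 20 alternatives).

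Id3 (ENSMUSG00000007872, chr4:136143497-136145755, plus strand), the ID gene that lymphocytes induce on antigen receptor signals, was barely detected. It had 0, 0.218 and 0.155 CPM in WT and 0.714, 0.305 and 0.540 CPM in ETV6-RUNX1 fetal liver, 23 reads in all against 69. In bone marrow it had 0.229, 0.253 and 0.0996 CPM in WT and 0.621, 0.0927 and 0.0309 CPM in ETV6-RUNX1. The fetal liver groups did not overlap, while in bone marrow a single ETV6-RUNX1 library lay above the WT range and the other 2 held 3 reads and 1 read. Id3 did not reach the 1 CPM filter and was not among the genes tested. With all 29278 genes with reads in the fit, its fetal liver difference was 0.43 ± 0.16 (limma adjusted p 0.103) and its bone marrow difference 0.04 ± 0.16 (limma adjusted p 0.98). Id4, the remaining family member, was at 0 in all ETV6-RUNX1 libraries and at a group mean of at most 0.0335 CPM in WT.

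For the 6 members that passed the filter, 2 of 6 rose and 0 fell with the fusion in fetal liver, where 43.1% of all 14271 tested genes passed, 24.8% as higher and 18.3% as lower. In bone marrow 2 of 6 rose and 0 fell (edgeR called 1), against 19.4% of all genes called, 14.4% higher and 4.93% lower. The fetal liver groups did not overlap for 4 of the 6, against 55.6% of all genes, and the bone marrow groups for 3, against 34.5%. The difference between the sources was called for 0 of 6, with 9.19% of all genes called, 5.56% more positive and 3.62% more negative in fetal liver. Of the 6, 3 had an unadjusted p under 0.05 there (Tcf3, Tcf4 and Id1), edgeR called 0 and DESeq2 1. Fetal liver was lower than bone marrow for 2 of 6 in WT, where 11.1% of all genes were called, 3.38% higher and 7.77% lower. It was lower for 2 of 6 in ETV6-RUNX1 cells, where 28.6% were called, 10.4% higher and 18.2% lower. The groups did not overlap for 4 of 6 in WT and for 3 in ETV6-RUNX1, against 29.5% and 42.2% of all genes.

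The median effect over the 6 was 0.13 in fetal liver, where the median of all genes was 0.08, and 0.32 in bone marrow, where it was 0.13. The scaling bears on the bone marrow values. Calls in bone marrow were 74.5% higher with the deposited scaling and 50.6% with median-of-ratios scaling, which moved the median of all genes to -0.00102. In fetal liver quantile normalization took the higher share from 57.6% to 42%. Against the median of all genes, the bone marrow differences were 0.66 for Tcf3 and 0.20 for Tcf4.

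**Figure D2:**
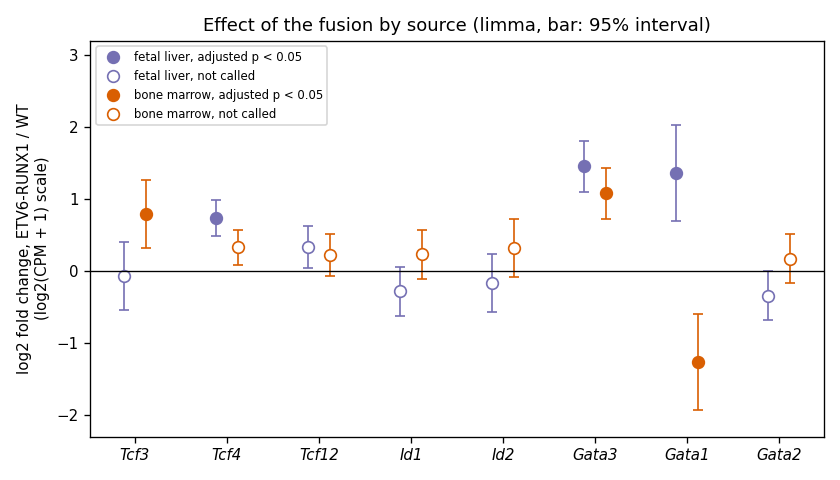
Log2 fold change of ETV6-RUNX1 against WT on the log2(CPM + 1) scale in fetal liver and bone marrow, with 95% intervals from limma. The 6 tested members are drawn, and beside them Gata1 and Gata2. Gata3 lies near 1.45 and 1.08, Tcf4 at 0.74 and 0.33, and Tcf3 at -0.07 and 0.79, while the intervals of Id1 and Id2 include 0.

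Several marker lists differed with the genotype in fetal liver. The summed level of 9 macrophage and monocyte markers, led by Lyz2, was 251 to 314 CPM in WT and 747 to 943 CPM in ETV6-RUNX1. Of these markers 5 were tested and all 5 were called higher, while C1qa was at 0 in both groups. The 8 megakaryocyte markers summed to 4066 to 5500 CPM and 8750 to 9770 CPM, the 9 erythroid markers to 731 to 1013 CPM and 1451 to 2226 CPM, and the 7 endothelial markers to 103 to 141 CPM and 251 to 320 CPM. Of the erythroid markers 7 of 8 tested were called higher, of the endothelial markers 4 of 6, and 0 lower in both. Hbb-bt led the erythroid sum, with means of 815 and 1611 CPM in WT and ETV6-RUNX1. Pecam1 (69.7 and 141 CPM) and Tek (22.4 and 96.9 CPM) led the endothelial sum. The 9 mast cell and basophil markers summed to 7.35 to 12.1 CPM in WT and to 3.36 to 5.34 CPM in ETV6-RUNX1, with Cpa3 and Gzmb called lower. The 13 HSC markers summed to 1880 to 2279 CPM and 4210 to 4332 CPM, with 9 of 13 called higher and 1 lower. Among the 8 megakaryocyte markers, 5 were called higher and 1, Gp9, lower. Of all genes tested in fetal liver, 24.8% were called higher and 18.3% lower. The part of these lists in the fetal liver results was not tested.

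In bone marrow the HSC markers summed to 1968 to 2884 CPM in WT and 3053 to 3373 CPM in ETV6-RUNX1, with 7 of 13 called higher and 1 lower. Of all genes tested there, 14.4% were called higher and 4.93% lower. The mast cell and basophil markers summed to 26.9 to 45.4 CPM and 7.89 to 15.6 CPM, with Fcer1a and Gzmb called lower. The macrophage list summed to 259 to 345 CPM in WT and 327 to 484 CPM in ETV6-RUNX1, with 1 of 5 tested called higher (Cd68). The sums of the megakaryocyte markers overlapped. The part of these lists in the bone marrow results was not tested. In these bulk libraries a change in the share of a cell type and a change in RNA per cell cannot be told apart.

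Lymphoid markers differed in level from list to list. The 9 T and innate lymphoid markers summed to 1.73 to 3.18 CPM in every library, led by Cd4 and Thy1, and Cd3e was at 0 in all 12. Of 7 plasmacytoid dendritic cell markers, 1, Bst2, had a group mean above 1 CPM. Bst2, which interferon also induces, stood at 90.8 CPM in WT and 616 CPM in ETV6-RUNX1 fetal liver, while Siglech was at 0 in WT fetal liver and ETV6-RUNX1 bone marrow, and Ly6d was at 0 in 3 of 4 groups. The 7 B-cell markers summed to 39.3 to 82.6 CPM, nearly all from Cd79b, and Pax5 was at 0 in both WT groups.

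Levels of different genes were compared as CPM per kilobase of annotated exon. Id1 was the highest of the 7, between the 91.5th and 93.4th percentile of tested genes in the 4 groups, followed by Id2 at the 75.3rd to 80.4th. Gata3 ran from the 54.0th percentile in WT fetal liver to the 79.6th in ETV6-RUNX1 bone marrow. Tcf12 stayed at the 35.6th to 36.8th. Tcf4 has 27.4 kb of annotated exon against 4.04 kb for Tcf3, which lowers its level per kilobase. Per kilobase of coding sequence Id1 was still the highest of the 7. Tcf4 then stood above Id2 in ETV6-RUNX1 fetal liver (87.8 against 75.9 CPM). It stood below Id2 in WT fetal liver (52.5 against 85.6), WT bone marrow (82.3 against 88.3) and ETV6-RUNX1 bone marrow (103 against 111).

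Summed per kilobase of exon, the 3 E-protein genes gave 11.6 ± 0.299 CPM (SD, n = 3) in WT and 15.0 ± 2.08 CPM in ETV6-RUNX1 fetal liver, and 13.6 ± 0.295 and 19.1 ± 0.875 CPM in bone marrow. The ID genes summed to 94.1 ± 7.20 and 78.8 ± 9.56 CPM in fetal liver and to 75.7 ± 14.0 and 90.1 ± 11.9 CPM in bone marrow. The E-to-ID ratio within a library does not depend on the scaling between libraries. It was 0.117 to 0.129 in WT and 0.187 to 0.194 in ETV6-RUNX1 fetal liver, with no overlap. In bone marrow it was 0.153 to 0.225 in WT and 0.194 to 0.231 in ETV6-RUNX1, with overlap.

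The size of the ratio rests on the gene lengths used. With coding lengths it was 0.307 ± 0.0299 and 0.547 ± 0.0326 (SD, n = 3) in WT and ETV6-RUNX1 fetal liver, and 0.523 ± 0.137 and 0.545 ± 0.085 in bone marrow. WT fetal liver thus had the lowest ratio with either length. Within the E proteins, Tcf4 made up 37.8% ± 2.42 of the sum per exon kilobase in WT fetal liver and 48.8% ± 3.85 in ETV6-RUNX1 fetal liver. With coding lengths these shares were 69.4% ± 1.22 and 76.6% ± 0.914. Tcf3 made up 43.2% in WT fetal liver with exon lengths, above Tcf4 in the mean though the libraries overlapped (39.1% to 46.0% against 35.7% to 40.4%), and 12.0% with coding lengths. With exon lengths Id1 made up 73.9% to 80.5% of the ID sum in the group means, and Id3 at most 0.533% in any library. With coding lengths Id1 made up 56.3% to 65.3% and Id3 at most 0.983%. No test was made of these ratios.

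**Figure D3:**
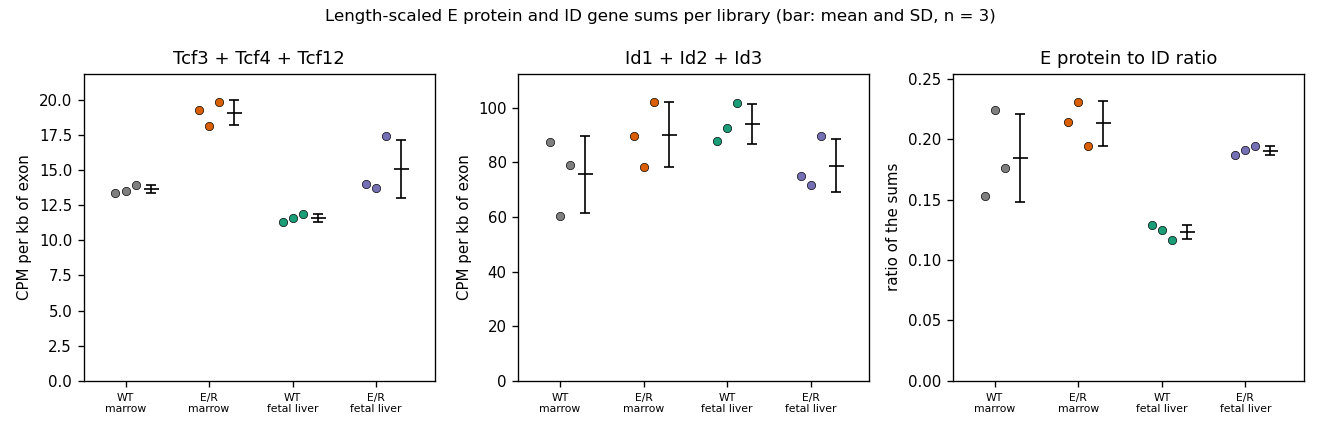
Sum of the E-protein genes, sum of the ID genes (both in CPM per kilobase of exon) and their ratio in each library, with group mean and SD (n = 3) as a bar. WT fetal liver libraries have ratios of 0.117 to 0.129, below all libraries of the other 3 groups.

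Across the 12 libraries Tcf4 and Gata3 had a Pearson correlation of 0.96 on the log2(CPM + 1) scale, Tcf12 and Gata3 of 0.81 and Tcf4 and Tcf12 of 0.76. Tcf3 and Id2 had 0.75, and Tcf4 and Id1 -0.51. These are descriptions over 4 groups that differ in level, with shared library scaling. Among 9869 tested genes that averaged 5 CPM or more, those most like Gata3 were Ssh3 and Ctso (both 0.98) and Zbtb4 (0.97). Those most like Tcf4 were the pseudogene H2-T-ps (0.99), Gpc1 and Ccdc173 (both 0.98), and those most like Tcf3 were Efhd2 (0.95), Bicdl1 (0.94) and Fxr2 (0.93). For Tcf12 they were Slc35e1, Man2a1 (both 0.93) and Itprid2 (0.90), for Id1 Psmd4 (0.90), Itgb1bp1 and Eif3f (both 0.88), and for Id2 Tdpx-ps1 (0.91), Vdac3-ps1 (0.90) and Flvcr1 (0.89).

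The other GATA factors of blood behaved differently from Gata3. Gata1, the erythroid and megakaryocytic factor, was at 102, 75.1 and 98.4 CPM in WT and at 223, 278 and 209.7 CPM in ETV6-RUNX1 fetal liver. In bone marrow it was at 34.8, 31.0 and 43.0 CPM in WT and at 11.9, 29.1 and 8.39 CPM in ETV6-RUNX1. Gata1 rose in fetal liver by 1.36 ± 0.31 (limma adjusted p 0.00308) and fell in bone marrow by 1.26 ± 0.31 on the log2 scale (limma adjusted p 0.0133), and the difference between these effects passed (2.62 ± 0.44, limma adjusted p 0.00232). The fall in bone marrow was lost with all genes tested (limma adjusted p 0.061) and without ETV6-RUNX1 bone marrow replicate 1 (-1.13, limma adjusted p 0.0507).

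Gata2, which maintains HSCs, was at 127, 89.0 and 110.4 CPM in WT and at 84.2, 70.8 and 102 CPM in ETV6-RUNX1 fetal liver, an overlap with a difference of -0.34 ± 0.16 (limma adjusted p 0.0979). It passed as a fall under 6 of 20 alternatives. In bone marrow Gata2 was at 123, 130 and 133 CPM in WT and at 141, 163 and 134 CPM in ETV6-RUNX1 (0.17 ± 0.16, limma adjusted p 0.472). Per kilobase of exon, Gata3 stood at 0.263 ± 0.0763 of Gata2 in WT and 0.924 ± 0.155 in ETV6-RUNX1 fetal liver, and at 0.440 ± 0.0695 and 0.832 ± 0.0852 in bone marrow (SD, n = 3). Of the list of 8 other GATA and FOG genes, 4 were tested, and Gata1 was the only member called in each source. For comparison, the genotype call took in 43.1% of the whole tested set in fetal liver and 19.4% in bone marrow, either direction.

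**Figure D4:**
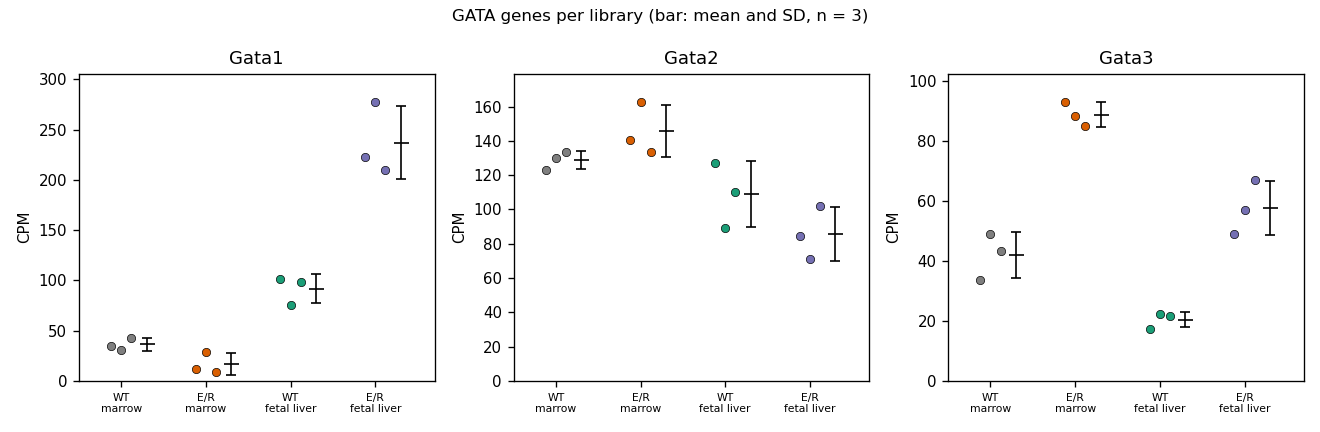
CPM (linear axes from 0) of Gata1, Gata2 and Gata3 in each library, with group mean and SD (n = 3) as a bar beside the points. Gata3 is higher in ETV6-RUNX1 in both sources, Gata1 is higher in fetal liver and lower in bone marrow, and the Gata2 genotypes overlap in fetal liver.

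Of the tissue-restricted bHLH partners of E proteins, 4 of 22 were tested. In fetal liver 2 rose and 0 fell, Tal1 and Bhlha15, and in bone marrow Bhlha15 rose, where 24.8% and 14.4% of all genes tested were higher. Tal1, the partner that acts in HSCs and erythroid cells, was at 34.9, 27.7 and 32.4 CPM in WT and at 39.6, 39.8 and 49.0 CPM in ETV6-RUNX1 fetal liver, with no overlap (0.42 ± 0.14, limma adjusted p 0.029). That call held under 13 of 20 alternatives and was lost with edgeR (adjusted p 0.0918), with DESeq2 (adjusted p 0.0742), with median-of-ratios scaling (limma adjusted p 0.076), with quantile normalization (0.24, limma adjusted p 0.242), and without ETV6-RUNX1 fetal liver replicate 3 (0.115), WT replicate 2 (0.127) or WT replicate 3 (0.062). Bhlha15 was low, at 0.278 ± 0.204 and 1.09 ± 0.328 CPM (SD, n = 3) in WT and ETV6-RUNX1 fetal liver and at 0.967 ± 0.205 and 3.57 ± 0.763 CPM in bone marrow. Its fetal liver call was lost without ETV6-RUNX1 replicate 1 (limma adjusted p 0.0535) or WT replicate 3 (0.0688). Lyl1, a close relative of Tal1, varied widely within groups, from 15.2 to 68.1 CPM in WT bone marrow and from 43.2 to 260 CPM in ETV6-RUNX1 bone marrow. Its differences of 1.71 ± 0.66 in bone marrow (limma adjusted p 0.0836) and 1.20 ± 0.66 in fetal liver (limma adjusted p 0.156) did not pass.

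The LMO2-LDB1 proteins and ETO-family corepressors join E protein and GATA complexes, and all 11 genes of that list were tested. In fetal liver 3 rose (Lmo2, Cbfa2t3 and Runx1t1, the last lost without ETV6-RUNX1 replicate 2, limma adjusted p 0.0596, and with all genes tested, 0.0678) and 0 fell, with a median of 0.38, and in bone marrow 4 rose and 0 fell, with a median of 0.46. The corresponding values over all genes were 24.8% higher and a median of 0.08 in fetal liver, and 14.4% higher and a median of 0.13 in bone marrow. Lmo2, the bridging protein, rose in both sources, with means of 141 ± 12.0 and 221 ± 36.2 CPM (SD, n = 3) for WT and ETV6-RUNX1 in fetal liver and of 184 ± 8.67 and 331 ± 52.8 CPM in bone marrow (limma adjusted p 0.00291 and 0.00204). Cbfa2t3, an ETO corepressor, went from 116 ± 10.3 to 186 ± 8.38 CPM in fetal liver (limma adjusted p 0.00934). Ldb1 rose in bone marrow, from 29.9 ± 1.26 to 48.6 ± 3.11 CPM (limma adjusted p 0.0113), a call lost with quantile normalization (0.51, limma adjusted p 0.0616). It stood at 40.7 ± 1.90 and 40.4 ± 10.5 CPM in WT and ETV6-RUNX1 fetal liver.

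Of 27 genes listed as activated by E proteins, lymphoid genes among them, 10 were expressed enough to be tested. In fetal liver 4 rose (Notch1, Foxo1, Gfi1 and Cxcr4) and 2 fell (Flt3 and Lat), and in bone marrow Cdkn1a rose and Lat fell. Of all genes, 24.8% rose and 18.3% fell in fetal liver, and 14.4% rose and 4.93% fell in bone marrow. Notch1, the receptor that starts T-cell commitment, went in fetal liver from 11.7 ± 3.09 to 32.2 ± 9.95 CPM (SD, n = 3) (limma adjusted p 0.000807). Flt3, the cytokine receptor of lymphoid-primed progenitors, went from 22.8 ± 7.67 to 5.99 ± 2.10 CPM there (limma adjusted p 0.00193). Lat, a T-cell and platelet signalling adaptor, went from 127 ± 20.9 to 28.8 ± 41.8 CPM in fetal liver and from 127 ± 14.9 to 29.3 ± 6.53 CPM in bone marrow (limma adjusted p 0.00198 and 0.0477). In ETV6-RUNX1 fetal liver 1 library stood at 77.1 CPM and the others at 5.31 and 4.02 CPM. The bone marrow call of Lat was lost with edgeR (adjusted p 0.0558), with a pseudocount of 0.1 (limma adjusted p 0.06), with all genes tested (0.166), with the 5 CPM filter (0.0505) and without any 1 of the bone marrow libraries or WT fetal liver libraries (limma adjusted p 0.0562 to 0.122). That of Cdkn1a was lost with edgeR (adjusted p 0.0633), with median-of-ratios scaling (limma adjusted p 0.0679), with all genes tested (0.135) and without ETV6-RUNX1 replicates 1 or 2 or any WT bone marrow library (limma adjusted p 0.0542 to 0.161). The list's median was 0.48 in fetal liver and 0.18 in bone marrow, against 0.08 and 0.13 over all genes.

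Of 25 early T and innate lymphoid genes linked to GATA3, 9 were tested, and 5 rose (Tox, Il2ra, Ets1, Nfil3 and Rora) and 2 fell (Icos and Zbtb16) in fetal liver, with a median of 1.08. In bone marrow Il2ra and Rora rose and 0 fell, with a median of 0.22. In fetal liver 24.8% of all genes rose and 18.3% fell, with a median of 0.08, and in bone marrow 14.4% rose and 4.93% fell, with a median of 0.13. Tox, a nuclear factor of T and innate lymphoid development, went in fetal liver from 17.3 ± 5.65 to 63.4 ± 2.89 CPM (SD, n = 3) (limma adjusted p 5.06e-06). Rora, which group 2 innate lymphoid cells need, went from 5.93 ± 0.857 to 13.7 ± 1.89 CPM in fetal liver and from 8.60 ± 2.73 to 16.5 ± 3.36 CPM in bone marrow. The bone marrow call of Rora was lost without ETV6-RUNX1 replicate 2 (limma adjusted p 0.0682) or WT replicate 1 (0.0565). Il2ra, a subunit of the interleukin 2 receptor, went from a mean of 0.0569 to 1.87 CPM in fetal liver and from 0.083 to 3.07 CPM in bone marrow.

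Signals of the BMP and TGF-beta families act on the ID genes through SMAD proteins, and 17 of 21 genes of that list were tested. In fetal liver 7 rose and 1 fell, with a median of 0.49, and in bone marrow 4 rose and 0 fell, with a median of 0.35. Over all genes the shares were 24.8% higher and 18.3% lower in fetal liver and 14.4% and 4.93% in bone marrow, with medians of 0.08 and 0.13. Skil and Ski, which repress SMAD targets, both rose in both sources, Skil from 4.63 ± 0.933 to 38.1 ± 9.55 CPM (SD, n = 3) and Ski from 16.2 ± 1.68 to 24.9 ± 2.31 CPM in fetal liver. In bone marrow the call of Skil was lost with all genes tested (limma adjusted p 0.0526) and without ETV6-RUNX1 replicate 2 (0.0619). That of Ski was lost with edgeR (adjusted p 0.0516), with median-of-ratios scaling (limma adjusted p 0.0653), with quantile normalization (0.32, limma adjusted p 0.159), and without ETV6-RUNX1 replicate 1 (0.0526) or WT replicate 3 (0.0529). The receptor gene Tgfbr2 went from 9.89 ± 0.771 to 26.02 ± 0.889 CPM in fetal liver and from 13.9 ± 3.78 to 35.05 ± 8.93 CPM in bone marrow (limma adjusted p 0.00023 and 0.00146). The BMP receptor gene Bmpr2 went from 17.8 ± 2.07 to 41.8 ± 4.27 CPM in fetal liver (limma adjusted p 0.00026). Beside these, Id1 and Id2 were called in neither source.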

How the data were processed

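RNA sequencing values of 12 libraries were used. The authors deposited a table of CPM per gene, and per the labels' protocols libraries were made from total RNA with a stranded low-input kit. The submitters' processing notes name bcl2fastq, STAR 2.5.1a, Subread, featureCounts 1.4.6-p5, Salmon 0.8.2, edgeR, limma and the build GRCm38. Which of these made the table is not given in the sources used here.

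The deposited CPM values were whole multiples of a step, and 100% became whole reads within 0.01. Of 40757 entries, 276 were identical repeats. GENCODE M21, used for positions and lengths, holds 40254 of the gene IDs. The values were taken as log2(CPM + 1). Genes that reached 1 CPM in 3 or more libraries (14271) were fitted with limma 3.58.1 in R 4.3.3 (trend, 4 groups, 8 residual degrees of freedom, two-sided, no covariate), with Benjamini-Hochberg adjustment over all of them. The 5 comparisons were genotype within each source, the difference between these effects, and source within each genotype. Exact permutation tests of 3 libraries against 3 cannot go below 0.1 and are not given per gene.

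There were 20 alternatives: edgeR 4.0.16 and DESeq2 1.42.0 on the recovered reads, quantile normalization, median-of-ratios scaling, a replicate block, a pseudocount of 0.1, no filter (29278 genes), a filter on a mean of 5 CPM, and each library left out. The scripts were tested on simulated data. The named genes are the members, Id4, Gata1, Gata2, Tal1, Lyl1, up to 3 called genes per list and genotype comparison by smallest p, and the 3 genes most correlated with each tested member. Gfi1, Cxcr4, Nfil3, Icos and Zbtb16 were named after their values were seen. The members and lists were chosen with earlier results of these data known.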

Additional observations from a re-analysis of the deposited data

Results flagged for a closer look

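For 8 of the genes named above outside the marker lists, the effect of the fusion differed between the sources by a test of the difference itself. Of all genes tested, 9.19% passed that test. Many of the named genes were picked by their genotype p, and Nfil3 and Icos after their values were seen. The count of 8 is therefore no measure of how common such differences are among these genes. Gata1 differed most, by 2.62 ± 0.44 (SE) on the log2 scale (limma adjusted p 0.00232), with 1.36 in fetal liver and -1.26 in bone marrow, and it passed under 20 of 20 alternatives (adjusted p at most 0.023). Tox differed by 1.65 ± 0.27 (limma adjusted p 0.00214), with 1.86 and 0.21, and also passed under 20 of 20. Ets1, a lymphoid transcription factor, differed by 1.37 ± 0.32 (limma adjusted p 0.0177), with 1.30 and -0.07, and passed under 17 of 20 (adjusted p up to 0.0633). Skil differed by 1.61 ± 0.41 (limma adjusted p 0.0263), with 2.78 and 1.17, and passed under 11 of 20 (adjusted p up to 0.0925). Of the genes most like Tcf4 in pattern, Gpc1 differed by 1.30 ± 0.33 (limma adjusted p 0.0249, passed under 16 of 20) and H2-T-ps by 0.84 ± 0.23 (limma adjusted p 0.038, passed under 9 of 20). Nfil3 differed by 1.02 ± 0.30 (limma adjusted p 0.0488) and passed under 4 of 19 alternatives. Icos differed by -1.54 ± 0.32 (limma adjusted p 0.00969), with -0.88 in fetal liver and 0.65 in bone marrow, and passed under 19 of 19. None of the 7 E-protein, ID and GATA3 genes was among them, where DESeq2 alone called Tcf4 and limma called Tcf3 without 1 library.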

How the results depend on the processing

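Of 600 alternative values of the tested members, 553 kept their direction and side of the threshold, 22 lost a call, 8 gained one and 17 turned direction, none of them a called difference. Gata3 and Tcf4 kept their fetal liver calls throughout.

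The directions that turned were small. In log2 units, between sources in ETV6-RUNX1 cells, with DESeq2, edgeR and median-of-ratios scaling, Tcf12 was 0.075, 0.069 and 0.0852 and Id1 was 0.0698, 0.0664 and 0.0847. Tcf12 was 0.0126 with quantile normalization. In WT cells Id2 was 0.0443, 0.0521, 0.0596 and 0.0741 with DESeq2, edgeR, median-of-ratios scaling and quantile normalization. Over the libraries left out in turn, Tcf3 in fetal liver ranged from -0.35 to 0.10, above 0 without ETV6-RUNX1 fetal liver replicates 1 or 2. Between sources Id1 ranged from -0.19 to 0.00041 in ETV6-RUNX1 cells, above 0 without ETV6-RUNX1 bone marrow replicate 3, and Id2 from -0.19 to 0.0773 in WT cells. The interaction of Lyl1 ranged from -1.31 to 0.17, and its difference between sources in ETV6-RUNX1 cells from -0.38 to 0.90.

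Leaving out each library gave 4666 to 6638 calls over all genes for genotype in fetal liver, 1520 to 2924 in bone marrow, 731 to 2332 for the interaction, and 868 to 2781 (WT) and 2831 to 4611 (ETV6-RUNX1) between sources. The interaction gave 1311 calls, 767 with all genes with reads and 2332 without WT bone marrow replicate 1. The share of higher calls between sources in ETV6-RUNX1 cells was 36.3%, and 58.8% with median-of-ratios scaling, and in WT cells 30.3% and 41%, and for the interaction 60.6% and 74.6%. The cause was not tested.

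With the replicate number as a block, 5838, 2334, 1033, 1425 and 3739 genes were called in the 5 comparisons, and no call of a member changed. Of the other named genes, Cdkn1a and Lat in bone marrow (limma adjusted p 0.0575 and 0.0593) and Tal1 between sources in ETV6-RUNX1 cells (0.0638) did not pass with the block. Of the same-number correlations of deviations, 4 of 12 were above 0.1 (-0.44 to 0.22), and 2 of 12 libraries correlated best with their own number. These were replicates 1 and 3 of ETV6-RUNX1 against WT fetal liver (0.160 and 0.221). With 3 libraries per group, such values cannot show whether the numbers pair the libraries.

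Depth limits what can be said of Id3 and Id4. Gene totals do not separate splice forms.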

Other observations

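Besides the ID genes, cells hold other helix-loop-helix repressors and related factors, and 4 of a list of 12 were tested. In fetal liver Bhlhe41 and Hhex rose and 0 fell, and in bone marrow Bhlhe40, Hes6 and Hhex rose and 0 fell, with medians of 0.64 and 0.82. Of all genes tested, 24.8% were higher in fetal liver and 14.4% in bone marrow, with medians of 0.08 and 0.13. Hhex, a homeobox repressor placed in this list for its role in early blood and B-cell development, was at 47.1 ± 9.82 and 90.7 ± 8.63 CPM (SD, n = 3) in WT and ETV6-RUNX1 fetal liver (limma adjusted p 0.000734) and at 47.5 ± 7.79 and 74.3 ± 11.9 CPM in bone marrow (limma adjusted p 0.0235). The bone marrow call of Hhex was lost with all genes tested (limma adjusted p 0.0596) and without ETV6-RUNX1 replicate 1 or 2 or WT replicate 1 or 2 (limma adjusted p 0.0524 to 0.091). Bhlhe40, a repressor of clock and metabolic genes, was at 51.7 ± 7.67 and 104.9 ± 9.63 CPM in bone marrow (limma adjusted p 0.00309) and at 26.2 ± 6.83 and 32.8 ± 4.84 CPM in fetal liver (limma adjusted p 0.17). Hes6 was at 11.5 ± 4.76 and 24.4 ± 3.53 CPM in bone marrow (limma adjusted p 0.00919) and at 17.3 ± 2.22 and 17.2 ± 0.782 CPM in fetal liver (limma adjusted p 0.991). The difference between the effects in the sources missed the threshold for all 4, with limma adjusted p 0.0685 for Hes6, 0.115 for Bhlhe41, 0.128 for Bhlhe40 and 0.457 for Hhex. Bhlhe41 stayed low, at 0.614 ± 0.259 and 3.07 ± 0.817 CPM in fetal liver.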
